A study of Homo sapiens with 8 samples.

Results

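The 10 imprinted genes followed here are known for effects on growth: IGF2, H19, MEG3, DLK1, PEG3, PEG10, CDKN1C, PLAGL1, MEST and NNAT. They were chosen by name, and all 10 had a row among the 60286 genes of the deposited matrix. Neural cultures of the established human embryonic stem cell line H1 were grown either flat (2D) or as organoids (3D), and some were exposed to morphine, cocaine or dopamine. RNA of single cells was read after fixation and split-pool barcoding, in which repeated splitting and pooling of cells gives each cell its own set of barcodes. The matrix held 43693 cells from 1 pool, split over 8 sublibraries whose labels do not separate the cultures, so the groups were taken from the culture tag in each cell name. There were 46 tags in 9 arrangements.

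All groups were human, came from this single line and carried no other stated allele or transgene. The arrangement 2DMono had 6 flat tags (2 each of AcDop, AcMor and Vehic), and 3DMono had 6 organoid tags with the same treatments. The arrangement 2DCocu had 12 flat tags (4 each of AcCoc, AcMor and Vehic). The arrangement 3DFusi had 10 organoid tags (4 of AcCoc, 3 of AcMor and 3 of Vehic). The remaining arrangements carried a protocol name and no treatment, with 2 tags each for 2DProto2Fjo, 2DProto3Wu and 2DProto4Nic and 3 tags each for 3DProto1For and 3DProto2Xia. The labels do not spell these words out: Cocu and Fusi are read here as co-culture and fused organoids, AcCoc, AcMor and AcDop as exposure to cocaine, morphine and dopamine, and Vehic as the control. No dose, duration or age of the cultures was given in the sources used here. Whether numbered tags were separate cultures is not stated either, so a p-value measures only the spread between tags, which may be technical. Organoids were pooled, 2 to 3 per dissociation, per the labels' protocols.

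An imprinted gene is read mainly from the copy inherited from one parent, and the choice is held by methylation of cytosines at control regions set in the germ line. Genes read from the paternal copy, such as IGF2, DLK1, PEG3, PEG10, PLAGL1, MEST and NNAT, often favour growth of the fetus and placenta, while genes read from the maternal copy, such as H19, MEG3 and CDKN1C, often restrain it. In brain, several of them are also known to be active in progenitors and neurons. The files count RNA without regard to the parental copy, so imprinting itself was not measured.

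Positions are from RefSeq on GRCh38.p14, a patch release of the hg38 build named in the submitters' processing notes. H19 (chr11:1995176-2001266) and IGF2 (chr11:2129117-2149566) are neighbours, and CDKN1C (chr11:2883218-2885775) lies further along the same arm. DLK1 (chr14:100726892-100738224) is followed by MEG3 (chr14:100826108-100861026). PEG10 (chr7:94656325-94669695) and MEST (chr7:130486175-130506465) share a chromosome but lie far apart. PLAGL1 is at chr6:143940300-144064599, PEG3 at chr19:56810082-56840726 and NNAT at chr20:37521250-37523690. NNAT lies inside BLCAP (chr20:37517417-37527876), the end of MEST overlaps COPG2 (chr7:130506238-130668748), and PEG3 shares its start with ZIM2 (chr19:56774547-56840726). Strand use and the division of shared reads are not stated, so reads of such overlapping genes cannot be told apart with certainty.

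H19 and MEG3 are the long noncoding RNAs among the 10 and stayed low in these cultures, and the starts of both are shown because methylation at CpG sites is what imprinting acts through. Each line runs 5′ to 3′ on the strand of the gene, from 250 bases before to 50 bases after the start (RefSeq, GRCh38.p14), at chr11:2001217-2001516 on the minus strand for H19 and chr14:100825858-100826157 on the plus strand for MEG3. Capitals mark CpG dinucleotides.
H19: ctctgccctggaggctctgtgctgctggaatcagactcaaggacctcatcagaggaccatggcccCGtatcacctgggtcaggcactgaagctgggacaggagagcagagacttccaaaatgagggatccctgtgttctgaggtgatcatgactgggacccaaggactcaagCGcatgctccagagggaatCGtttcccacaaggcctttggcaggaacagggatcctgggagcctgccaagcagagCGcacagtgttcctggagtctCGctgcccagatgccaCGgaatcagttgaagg
MEG3: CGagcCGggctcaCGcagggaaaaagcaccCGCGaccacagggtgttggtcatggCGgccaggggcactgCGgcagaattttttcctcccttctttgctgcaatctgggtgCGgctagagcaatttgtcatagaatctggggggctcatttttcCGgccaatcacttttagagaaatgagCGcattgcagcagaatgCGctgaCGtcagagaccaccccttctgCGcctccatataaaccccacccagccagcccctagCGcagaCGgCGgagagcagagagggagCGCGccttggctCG
The H19 window held 6 CpG and the MEG3 window 19, against a median of 14 over 35116 windows of 300 bases in the same table. Windows of 4 of the 10 genes were in the table; where a gene had several, the one with the most CpG was taken, and those of PLAGL1 and MEST held 39 and 25. TGCCGC, the core letters bound by ZFP57, a factor known to keep imprints, was searched on both strands and lay 0 times in the H19 window, 1 time in that of MEG3, 2 times in that of PLAGL1 and 3 times in that of MEST. Of all windows, 16.7% held it. That share and the median are over windows not chosen for CpG, and TGCCGC itself holds a CpG. Neither is thus a like comparison for MEG3, PLAGL1 and MEST, whose windows were chosen for the most CpG. Methylation was not measured, and a match of letters is a description only.

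Depth differed widely between tags. A tag held 317 to 1959 cells and 3624668 to 58777178 counts, and a cell had a median of 12776 counts. Levels are given as CPM, the counts of a gene scaled to the same total in every tag. MEG3 and, in organoids, PEG3 rested on few counts per tag. In all, 2393 barcodes occurred in more than 1 sublibrary and 0 occurred more than once within a sublibrary.

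IGF2, the growth factor of fetal life that signals through the IGF1 and insulin receptors, ranged widely between cultures. The tags of 2DMono read 15.3, 51.6, 9.09, 140.2, 31.3 and 32.1 CPM, and the 12 tags of 2DCocu read 15.9 to 155, with a median that lay between tags of 29.1 and 50.8. In 3DMono the values were 156, 70.7, 130.0, 43.2, 131 and 516 CPM, and the 10 tags of 3DFusi ran from 155 over a median of 556 to 1288. The lowest 3DMono tags lay within the range of 2DMono. The flat protocol cultures were low and close together, at 8.11 and 9.36 CPM for 2DProto2Fjo, 4.75 and 4.88 for 2DProto3Wu, and 8.75 and 9.996 for 2DProto4Nic. The organoid protocol cultures split: 3DProto1For read 2374, 3676 and 6.25 CPM, and 3DProto2Xia read 2.01, 3296 and 2.12. Both protocols thus held tags from the high and from the low end of the whole series.

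H19, the noncoding RNA next to IGF2, was low throughout. Its 12 tags of 2DCocu ran from 2.21 over a median of 4.47 to 13.9 CPM and its 10 tags of 3DFusi from 0.162 over 1.40 to 4.15. In 2DMono the tags read 1.92, 1.27, 1.58, 1.29, 5.33 and 0.995 CPM, against 0.660, 0.205, 1.18, 1.09, 0.470 and 0.898 in 3DMono. A single organoid protocol tag, 3DProto2Xia replicate 2, reached 11.8 CPM while the others of that protocol read 0.316 and 0.733. The 3 organoid tags with 2374 to 3676 CPM of IGF2 held 3.31, 0.875 and 11.8 CPM of H19.

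MEG3, the noncoding RNA after DLK1, was near the limit of detection in every arrangement. A tag held 0 to 50 counts of it, and the arrangement means ran from 0.116 CPM in 2DCocu to 1.47 CPM in 2DProto3Wu. Only 216 of 43693 cells (0.494%, exact binomial 95% interval 0.431 to 0.565%, covering counting error only) had a count of it. DLK1, a membrane protein of the Notch ligand family known from fat cell precursors, was higher and followed another order. Its tags read 70.7 and 63.8 CPM in 2DProto3Wu, 20.6 and 24.5 in 2DProto4Nic and 11.3 and 19.4 in 2DProto2Fjo. In 2DMono they read 0.398 to 1.57 CPM and in 2DCocu 1.31 to 6.15. In 3DFusi its range was 2.09 to 24.0 CPM with a median of 6.74, 3DMono ran from 0.797 to 4.00, and the 6 organoid protocol tags from 1.38 to 36.9. DLK1 was thus highest in both 2DProto3Wu tags, and its lowest median, 0.979 CPM, was that of 2DMono.

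CDKN1C, the cell cycle inhibitor p57, read 21.3 CPM or less in all tags. Its arrangement medians ran from 0.643 CPM in 2DMono and 1.12 in 2DCocu to 1.95 in 3DMono, 3.94 in 3DFusi and 8.92 in 2DProto3Wu. The highest tag was again 3DProto2Xia replicate 2 at 21.3 CPM, beside 1.48 and 2.85 in the other tags of that protocol. PLAGL1, a zinc finger transcription factor known to act on other imprinted genes, was among the more abundant of the 10 everywhere, with arrangement medians between 37.4 CPM (3DProto2Xia) and 146 CPM (3DProto1For). The organoid protocol tags with high IGF2 held 146, 188 and 181 CPM of PLAGL1, and those with low IGF2 held 44.0, 37.4 and 37.4.

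PEG3, a zinc finger protein with roles in cell death and maternal behaviour in mice, differed between flat and organoid cultures, with 1 flat arrangement as an exception. Flat cultures read 2.09 to 5.18 CPM in 2DMono, 0.871 to 6.63 in 2DCocu, 4.79 and 4.81 in 2DProto2Fjo and 8.02 and 5.04 in 2DProto3Wu. Organoids read 0.0472 to 0.590 CPM in 3DMono, 0.0443 to 1.03 in the protocol organoids, 0.108 to 0.458 in 9 tags of 3DFusi and 2.26 in the tenth, AcCoc replicate 2. The flat culture 2DProto4Nic went against its format: its counts rounded to 0 in both tags, which allows a level of up to 0.0495 CPM (3 counts over the group). Levels of 2DProto3Wu and 2DProto2Fjo did not overlap, but with 2 tags each their order rests on little.

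PEG10, a protein derived from a retrotransposon and essential in the mouse placenta, read 29.4 to 64.9 CPM in 2DMono and 31.9 to 54.5 in 2DCocu. The matching organoids read 58.9 to 216 CPM in 3DMono and 170 to 271 in 3DFusi. Protocol cultures did not follow that order, with 114 and 178 CPM in flat 2DProto2Fjo, 222 and 184 in flat 2DProto4Nic and 89.2 to 328 in the organoid protocol tags. Its peak was in flat 2DProto3Wu, at 614 and 994 CPM. There it ranked 73rd of 41147 genes detected by mean count, a rank that is not corrected for gene length. MEST, a protein of the alpha/beta hydrolase family, peaked in the same cultures at 344 and 317 CPM and lay between 27.1 and 212 CPM elsewhere. NNAT, a small membrane proteolipid of developing neurons, was low: 0.8001 to 4.93 CPM in 2DMono and 1.64 to 5.01 in 2DCocu, against 4.56 to 23.3 in 3DMono and 3.46 to 23.5 in 3DFusi. In protocol cultures the flat 2DProto3Wu read 11.9 and 12.2 CPM and 2DProto2Fjo 4.83 and 7.18, while organoid tags read 2.81 to 5.25 in 3DProto1For and 4.78 to 16.5 in 3DProto2Xia.

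**Figure D1:**
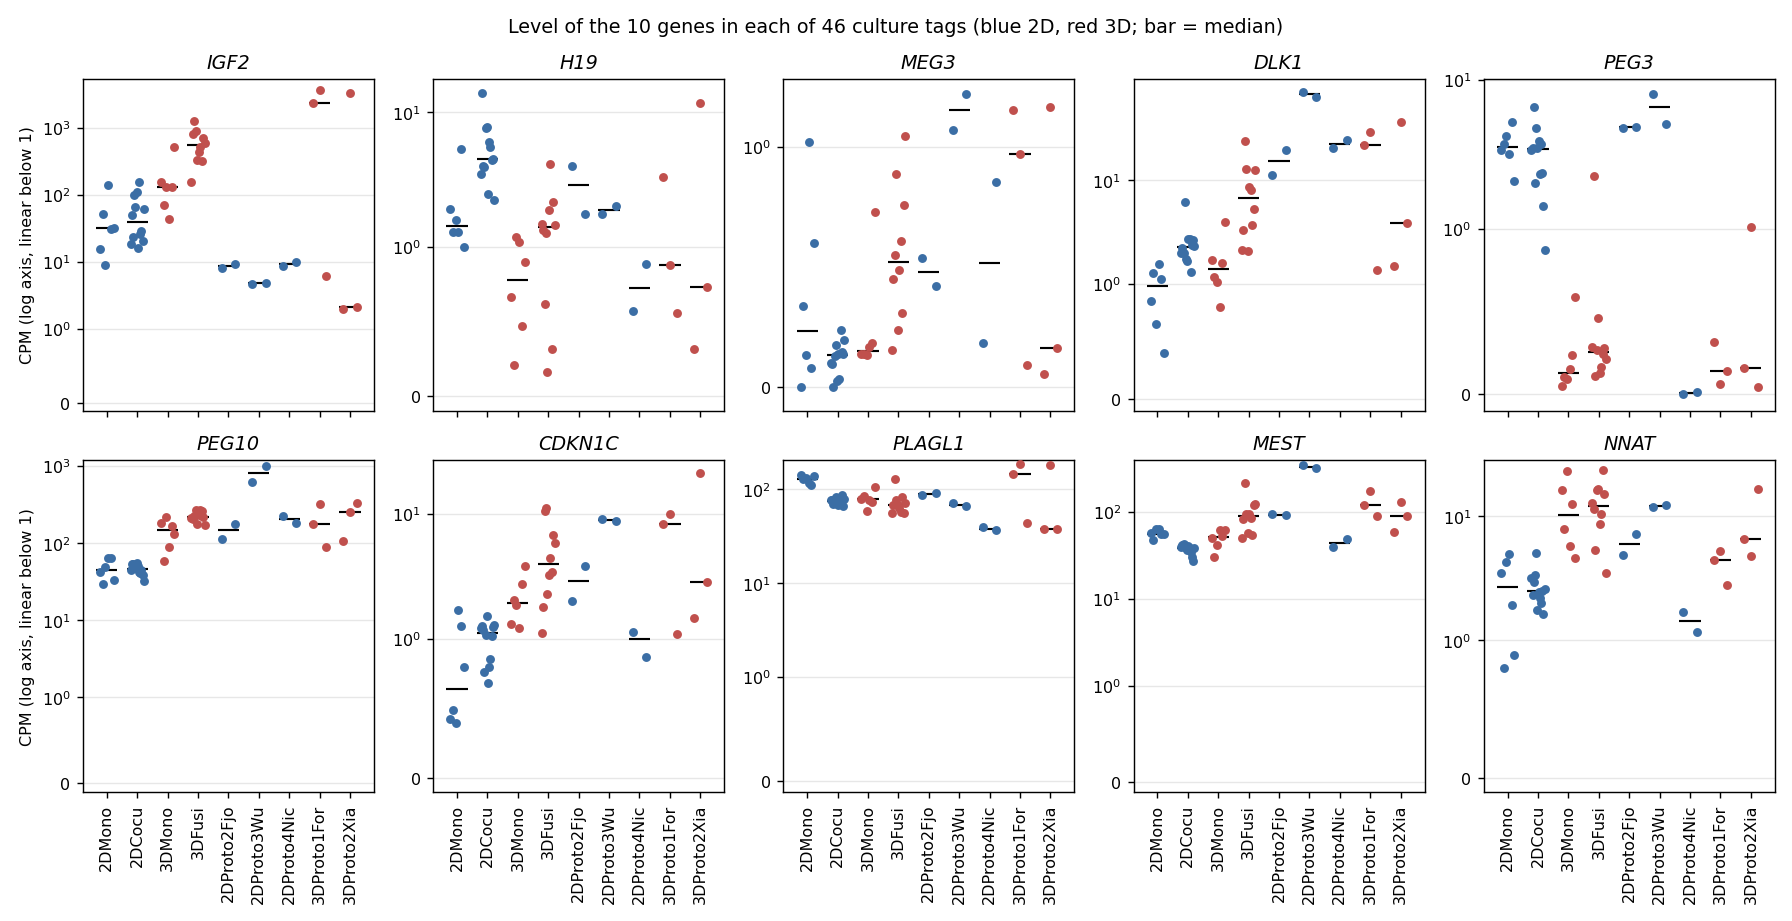
Level of each gene in CPM (log axis, linear below 1) in each of the 46 culture tags, by arrangement; points are tags, blue for flat and red for organoid cultures, and bars are medians. PEG3 sits between 0.871 and 8.02 CPM in all flat arrangements other than 2DProto4Nic and at 2.26 CPM or lower in organoids, while IGF2 splits the organoid protocol tags into 3 of 2374 to 3676 CPM and 3 of 2.01 to 6.25 CPM.

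Cells were then placed in classes by marker genes that did not include the 10. A class name ends in -like because it rests on markers alone, and clusters with too few raised markers, with markers of more than 1 class tied, or with more markers of another class among their leading genes stayed unnamed (15653 of 43693 cells). Levels per class are medians over tags with at least 20 cells of the class, and differences between classes are described without a test. IGF2 was a gene of mesenchymal-like and muscle-like cells here. Its median was 6742 CPM in muscle-like cells (3 tags: 3DProto1For replicates 1 and 2 and 3DProto2Xia replicate 2) and 1122 CPM in mesenchymal-like cells (29 tags), against 3.04 to 10.7 CPM in the other 8 classes. These medians pool arrangements. Summed over the tags of 3DProto1For, IGF2 read 124.7 CPM in glycinergic neuron-like, 76.9 in cycling-like and 3.22 in excitatory neuron-like cells. Unnamed cells read 404.7 CPM there and 246.4 in 3DProto2Xia. Over all tags, mesenchymal-like and muscle-like cells held 71.3% and 18.0% of all IGF2 counts in 8.60% and 0.618% of the cells. A count of IGF2 was seen in 91.8% of mesenchymal-like and 99.3% of muscle-like cells, and in 8.90% of excitatory neuron-like cells, at median depths of 15390, 14790 and 11690 counts. After thinning every cell to 5000 counts, which left out 1600 shallower cells in all, those shares were 81.5%, 99.2% and 1.36%.

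Free RNA in a split-pool experiment can place counts under barcodes of cells that do not express a gene, so IGF2 was set beside 8 mesenchymal markers (COL1A1, COL1A2, COL3A1, DCN, LUM, PDGFRB, TWIST1 and PRRX1). In 2DCocu there were 0.0638 IGF2 counts for each marker count in excitatory neuron-like cells and 0.0721 in mesenchymal-like cells, and in 2DMono 0.0660 and 0.0809. In 3DFusi the ratio was 0.352 in excitatory neuron-like, 0.663 in glycinergic neuron-like and 0.326 in mesenchymal-like cells, and in 3DMono 0.363 in excitatory neuron-like and 0.196 in mesenchymal-like cells. Across classes the ratio was thus similar to that of mesenchymal-like cells, higher or lower. It was lower in ciliated or ependymal-like cells of 2DCocu (0.0150) and in progenitor-like cells of 3DFusi (0.195) and 3DMono (0.124). Muscle-like cells held 15.6 IGF2 counts for each marker count in 3DFusi and 14.9 in 3DMono. In 3DMono they gave 6222 IGF2 counts and 417 marker counts, beside 7558 and 38660 in mesenchymal-like cells. Free RNA from both classes would thus have a higher ratio than that of mesenchymal-like cells alone. A ratio above the mesenchymal-like one therefore does not show an excess over free RNA. The part of free RNA in the low IGF2 values of neuron-like cells was not tested, and these values are given below as counts under those barcodes.

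Within the mesenchymal-like class, IGF2 differed between clusters. Cluster 13, found in organoids, read 5157 CPM, and the cartilage-like cluster led by ACAN and COL2A1 read 2333. Cluster 33, which held 88.1% of the class in 2DCocu, read 916 CPM. The mesenchymal-like cells of 2DProto4Nic made up 9.24% and 9.35% of its tags but held only 32.4 CPM of IGF2, with 10200 CPM of the 8 mesenchymal markers. H19 was highest in cluster 33 at 41.6 CPM, against 1.22 to 6.33 CPM in clusters 13, 22, 25 and 41, which held the class in organoids. That level pools tags that gave H19 counts unevenly. Without mesenchymal-like and muscle-like cells, H19 counts went from 313 to 130 in 2DMono Vehic replicate 1. In 2DCocu AcCoc replicate 2 they went from 220 to 93. DLK1 was high in the cartilage-like cluster (105 CPM), which also held the highest MEST of any cluster, 538 CPM.

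Several other members also had their highest class median in muscle-like cells, which rests on the same 3 organoid protocol tags. PEG10 had medians of 716 CPM in muscle-like, 149.7 in glycinergic neuron-like and 149.5 in GABAergic neuron-like cells, and 39.9 in excitatory neuron-like cells. These medians pool arrangements, and the classes drew their tags from different ones. Within 2DMono PEG10 read 54.9 CPM in GABAergic and 21.7 in excitatory neuron-like cells, within 3DFusi 303 and 119, and within 3DMono 125 and 89.6. Glycinergic neuron-like cells read 281 in 3DFusi and 31.8 in 2DCocu, where excitatory neuron-like cells read 23.8. MEST followed a similar split of neurons, with medians of 119 CPM in GABAergic and 14.4 in excitatory neuron-like cells and a mean of 111 ± 41.5 (SD, 28 tags) in glycinergic neuron-like cells. Summed over all tags, in place of a median, GABAergic neuron-like cells read 228.9 CPM of MEST. Within 2DMono its medians were 174.8 in GABAergic and 12.7 in excitatory neuron-like cells, and within 3DFusi 115.4 and 16.3. The cluster led by LHX8, a transcription factor of ventral forebrain neurons, and COPG2, the neighbour of MEST, carried 1011 CPM of PEG10, 393 of MEST and 47.0 of DLK1. Of its 1630 cells, 1522 were of 2DProto3Wu, so cluster and culture protocol cannot be told apart there. NNAT was highest in intermediate progenitor-like cells, at 57.8 CPM (5 tags), against 0.610 to 11.8 in the other named classes, but a clustering at resolution 0.4 gave 13.92 CPM (9 tags) for that class. The 5 tags were all organoid, while most other classes also drew on flat tags, so class and format are mixed here. Within 3DFusi alone, glycinergic neuron-like cells had a median above that range, given below. Among neural classes PLAGL1 had its highest medians at 140.4 CPM in cycling-like and 103 in progenitor-like cells, and it read 35.5 to 35.6 in GABAergic and glycinergic neuron-like cells. The tags of progenitor-like cells were all organoid, and those of cycling-like cells both flat and organoid. Cycling-like cells read lower in 3DFusi than in 2DCocu, as given below, so this order of classes mixes format with class. PEG3 had a median of 6.47 CPM in ciliated or ependymal-like cells, whose 16 tags were all flat. Within 2DCocu it read 8.56 CPM in that class, 5.30 in cycling-like and 3.82 in excitatory neuron-like cells, while the class read 0 in 2DProto4Nic. MEG3 had a median of 0 in each class other than muscle-like, where it was 5.20 CPM, and 9.26% of muscle-like cells had a count of it. CDKN1C (29.6 CPM) and DLK1 (31.6 CPM) also had their highest class medians there. Within these 3 tags PEG10 and CDKN1C were higher in muscle-like than in mesenchymal-like cells in each, at 716, 1185 and 608 against 138.8, 200.2 and 213.7 CPM for PEG10. DLK1 was the reverse in each, at 6.94, 31.6 and 50.9 CPM in muscle-like and 58.3, 50.7 and 103.7 in mesenchymal-like cells, so its pooled rank did not hold within tags.

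**Figure D2:**
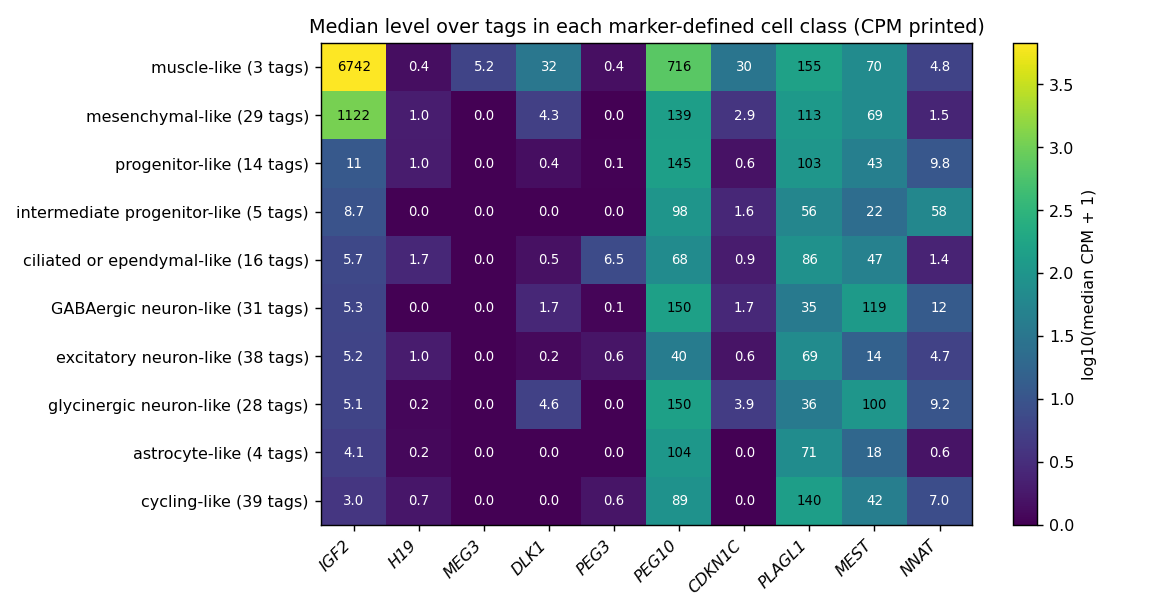
Median CPM over tags of each gene in each named cell class, with the number of tags of at least 20 cells beside the class; colour is log10(median CPM + 1) and the printed numbers are CPM. IGF2 reads 6742 and 1122 in the muscle-like and mesenchymal-like rows and 3.04 to 10.7 in the others.

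The first tested comparison asked how organoids differ from flat cultures grown in the matching arrangement. In monocultures (6 tags against 6, treatment as covariate), 9 of the 10 genes passed the filter on low counts and 7 of them were called at an adjusted p under 0.05: NNAT, PEG10 and CDKN1C rose and PEG3, H19, PLAGL1 and MEST fell. Over all 21862 genes tested, 38% were called, so calls were common in this comparison. MEG3 did not pass the filter. A gene passed where enough tags (3 in this fit) reached the level of 10 counts at median depth. PEG3 reached it in 6 flat and 0 organoid tags and CDKN1C in 2 flat and 6 organoid tags, so both passed only through the side where they were higher, and their calls follow in part from the filter. Values below are log2 fold changes of 3D over 2D with standard errors and adjusted p from edgeR's quasi-likelihood test with Benjamini-Hochberg adjustment.

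NNAT rose by 2.05 ± 0.43 (SE, adjusted p 0.00234), PEG10 by 1.41 ± 0.30 (0.00264) and CDKN1C by 1.14 ± 0.33 (0.0141). PEG3 fell by 4.55 (SE 0.40, adjusted p 7.6e-07), and its 6 organoid tags all lay under its 6 flat tags. PLAGL1 fell by 0.88 (SE 0.10, adjusted p 1.3e-05), again with no overlap, at 58.2 to 105 against 111 to 144 CPM. H19 fell by 1.71 (SE 0.47, adjusted p 0.0116), and without 2DMono Vehic replicate 1, its highest flat tag, the value was -1.02 with an adjusted p of 0.0526. MEST fell by 0.40 (SE 0.13, adjusted p 0.0264), with groups that overlapped. Leaving out 2DMono AcDop replicate 1, 3DMono AcMor replicate 1 or 3DMono Vehic replicate 1 moved its adjusted p to 0.0505 to 0.0579. IGF2 (1.57 ± 0.81, adjusted p 0.160) and DLK1 (0.46 ± 0.37, adjusted p 0.353) were not called. The IGF2 estimate rested on 2DMono AcMor replicate 2, the flat tag with 140.2 CPM and the one flat tag with muscle-like cells (0.779%). Without it the value was 2.50 with an adjusted p of 0.00726.

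In the second pair, 3DFusi against 2DCocu (10 tags against 12; AcCoc, AcMor and Vehic in both), 8 of the 9 genes that passed the filter were called and 48.8% of all 22511 genes. IGF2, PEG10, NNAT, CDKN1C, DLK1 and MEST rose, and PEG3 and H19 fell. IGF2 rose by 3.37 ± 0.41 (SE, adjusted p 6.8e-07). PEG10 rose by 2.19 ± 0.09 (adjusted p 3.2e-14), with every organoid tag (170 to 271 CPM) above every flat tag (31.9 to 54.5 CPM). NNAT rose by 2.20 ± 0.27 (7.1e-07), CDKN1C by 2.04 ± 0.30 (6.7e-06) and DLK1 by 1.57 ± 0.35 (0.00069). MEST rose by 1.25 ± 0.17 (2.1e-06), at 49.3 to 212 against 27.1 to 42.1 CPM. PEG3 fell by 3.40 (SE 0.38, adjusted p 2e-07), with 2 to 10 counts in each organoid tag, so that here too it passed the filter through the flat group and its call follows in part from that. H19 fell by 2.00 (SE 0.38, adjusted p 0.000176). PLAGL1 was not called (-0.15 ± 0.11, adjusted p 0.255), but without 3DFusi AcCoc replicate 3, a tag with 51.2% mesenchymal-like cells, it read -0.23 with an adjusted p of 0.0148.

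**Figure D3:**
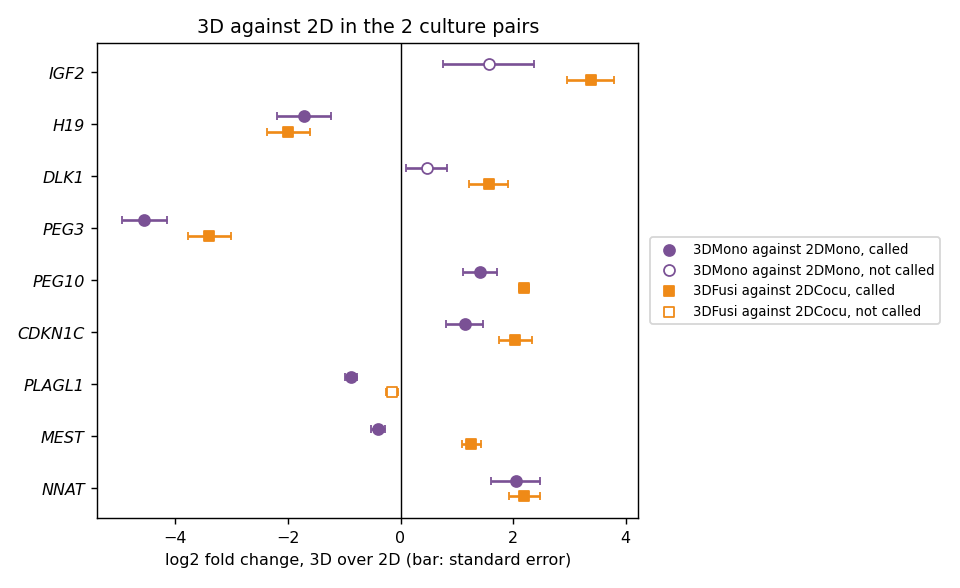
Log2 fold change of 3D over 2D with standard error for the 9 genes tested in each pair; circles are 3DMono against 2DMono, squares 3DFusi against 2DCocu, filled where the adjusted p was under 0.05. PEG3 reads -4.55 and -3.40, and MEST reads -0.40 in one pair and 1.25 in the other.

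The 2 pairs were compared directly by an interaction contrast over the 22 AcMor and Vehic tags of the 4 arrangements, a test added after the values were seen. It had no block on the tag number, and it called 9.98% of 23331 genes and 2 of the 9 members tested. The 3D over 2D difference of MEST was higher in the fused and co-cultured pair by 1.504 ± 0.23 (SE, log2, adjusted p 0.000135), and that of PLAGL1 by 0.56 ± 0.17 (adjusted p 0.0393). For PEG10 the difference was 0.90 ± 0.31 (adjusted p 0.067), and the other 6 had adjusted p-values of 0.219 to 0.939. Between the flat arrangements (2DCocu against 2DMono, AcMor and Vehic tags), 3 of 9 members were called and 29.9% of 21435 genes. DLK1 was higher in 2DCocu by 1.02 ± 0.31 (adjusted p 0.0199), and PLAGL1 (-0.82 ± 0.08, adjusted p 4.5e-07) and MEST (-0.86 ± 0.09, adjusted p 2e-06) were lower. Between the organoid arrangements (3DFusi against 3DMono), 0 of 9 members and 1.47% of 23861 genes were called. The 9 values ran from -0.29 for PLAGL1 to 1.92 ± 0.51 for DLK1 (adjusted p 0.0821), and MEG3, which passed this filter, read 1.12 ± 0.50 (adjusted p 0.265). DESeq2 called IGF2 (1.37, adjusted p 0.0389) and DLK1 (1.92, adjusted p 0.00284) there. It also called more of all genes there than edgeR, with both counts given in the closing section.

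Mesenchymal-like cells moved with these contrasts. They made up 0.992 to 5.99% of cells in 2DMono tags and 2.45 to 7.55% in 3DMono, and 1.98 to 7.503% in 2DCocu and 4.15 to 51.2% in 3DFusi. These shares include cluster 22, in which 36.1% of cells were called doublets. It held 11.6% of the class in 2DMono, 36.25% in 3DMono, 3.80% in 2DCocu and 21.7% in 3DFusi. The summed level of the 8 mesenchymal markers did not follow the same order: 591 to 1601 CPM in 2DMono, 166 to 582 in 3DMono, 503.7 to 1806 in 2DCocu and 214 to 4353 in 3DFusi. In bulk sums, a change in the number of cells of a type and a change in RNA per cell cannot be told apart. With mesenchymal-like and muscle-like cells removed, an alternative added after the values were seen, IGF2 was called in both pairs. It read 2.70 ± 0.35 in monocultures (adjusted p 2.6e-05) and 2.89 ± 0.37 in the second pair (adjusted p 1.2e-06). Unnamed cells held most of the IGF2 counts left in organoids, with 3814 in 3DMono (84.2 CPM) and 11460 in 3DFusi (135 CPM). Excitatory neuron-like cells there held 226 (9.20 CPM) and 215 (16.4 CPM). Unnamed cells of 2DMono kept 72120 counts of the 8 mesenchymal markers, so the removal did not clear all counts of these markers. In the fits without mesenchymal-like and muscle-like cells, DLK1 lost its call in the second pair (0.53 ± 0.30, adjusted p 0.149). H19 lost its call in monocultures (-0.98 ± 0.46, adjusted p 0.104). PLAGL1 gained one in the second pair (-0.42 ± 0.10, adjusted p 0.00133). PEG3 (-5.05 and -3.79), PEG10 (1.35 and 2.09), CDKN1C (1.13 and 1.81), MEST (-0.46 and 0.92) and NNAT (2.12 and 2.36) kept their calls and directions. These fits called 8423 of 21401 and 11132 of 21776 genes, so a kept or gained call shows little about a member. PEG3 read at most 0.263 CPM in 3DMono and 0.541 in 3DFusi, and CDKN1C 0.399 to 1.25 in 2DMono. The calls of PEG3 and the monoculture call of CDKN1C thus follow in part from the filter.

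**Figure D4:**
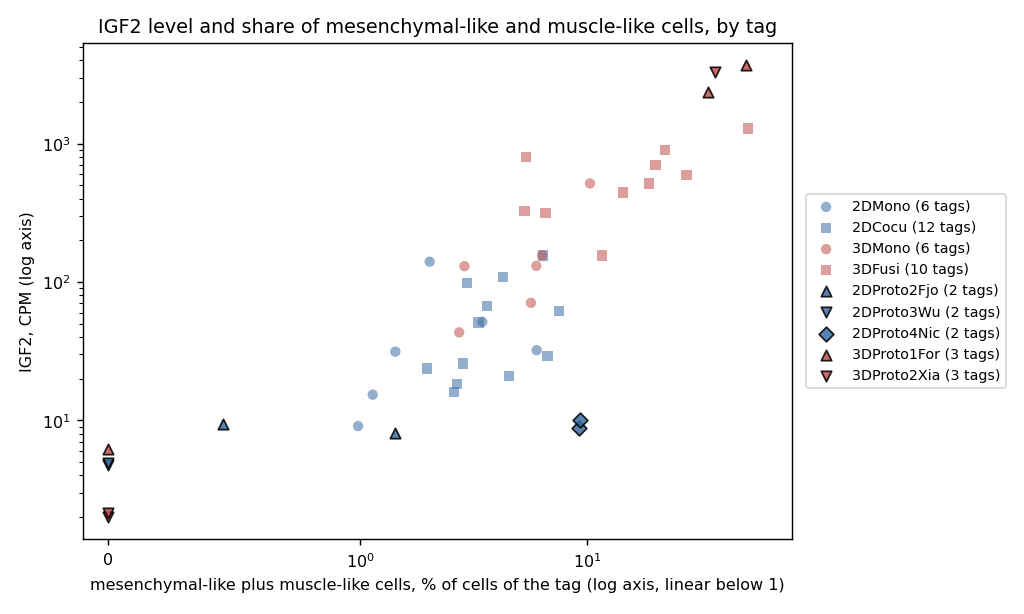
IGF2 in CPM (log axis) against the percentage of mesenchymal-like plus muscle-like cells (log axis, linear below 1) in each of the 46 tags. Tags with no such cells read 2.01 to 6.25 CPM, the 4 tags with the highest shares (33.96 to 51.2%) read 1288 to 3676 CPM, and the 2DProto4Nic tags read 8.75 and 9.996 CPM at 9.24% and 9.35%.

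The same comparison was made inside cell classes with at least 20 cells in a tag and at least 3 tags on each side. Different clusters held the class in flat and organoid cultures: 99.6% of excitatory neuron-like cells of 3DMono lay in cluster 2, and those of 2DMono in clusters 0 (68.2%) and 9 (31.6%). Likewise 99.7% of cycling-like cells of 2DCocu lay in cluster 8, and those of 3DFusi in clusters 16 (52.2%) and 18 (47.8%). In these sums several genes passed the filter only through the side where they were higher. These were IGF2 in the neural classes where it passed and NNAT wherever it passed. In mesenchymal-like cells they were CDKN1C and DLK1 (organoid side) and H19 (flat side). Their calls follow in part from the filter, and the counts of called members below support nothing on their own. The values compare the cells that meet the same marker rule and not one shared cluster. In monocultures, cycling-like cells had 4 members called, with 27.6% of genes called, excitatory neuron-like cells 4 with 32.3%, and GABAergic neuron-like cells 3 with 20.6%. In the second pair, cycling-like cells had 4 members called with 35.7% of genes, excitatory neuron-like cells 3 with 42.2%, glycinergic neuron-like cells 4 with 42.1%, and mesenchymal-like cells 7 with 39.3%. MEST, PEG10 and PLAGL1 were tested in every class, and IGF2 in all but GABAergic neuron-like cells. NNAT was tested in all but excitatory neuron-like and mesenchymal-like cells of the second pair. CDKN1C, DLK1 and H19 were tested in mesenchymal-like cells alone, and MEG3 and PEG3 in none.

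PEG10 was higher in organoids in 6 of the 7 class comparisons, by 1.46 to 3.25 on the log2 scale, and the seventh, GABAergic neuron-like cells of monocultures, read 1.93 ± 0.62 without a call (adjusted p 0.0565). In cycling-like cells its medians over tags were 299 CPM in 3DFusi and 31.2 in 2DCocu, and the ranges, 170 to 459 and 18.5 to 40.9, did not meet. PLAGL1 was lower in organoids in 6 of 7, by -1.27 to -0.38. The seventh, glycinergic neuron-like cells, read -0.13 (adjusted p 0.600) and turned to 0.0159 (adjusted p 0.956) at resolution 0.4. In cycling-like cells it read 138 to 202 CPM in 2DCocu and 43.0 to 125 in 3DFusi. NNAT was called higher in 4 of the 5 class comparisons in which it passed the filter, by 1.03 to 2.99. In glycinergic neuron-like cells its medians were 34.1 CPM in 3DFusi and 5.35 in 2DCocu.

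MEST went down in GABAergic neuron-like cells of monocultures (-1.13 ± 0.17, adjusted p 5.3e-05; 53.6 to 137 against 142 to 201 CPM) and in cycling-like cells there (-0.61 ± 0.16, adjusted p 0.00551). It went up in glycinergic neuron-like cells (0.63 ± 0.14, adjusted p 0.000563) and mesenchymal-like cells (1.89 ± 0.32, adjusted p 0.000183) of the second pair. In mesenchymal-like cells of that pair, H19 was lower by 3.88 (SE 0.88, adjusted p 0.0026), with a flat median of 8.32 CPM (range 0 to 153) and an organoid median of 0.885 (0.336 to 13.5). DLK1 was higher by 2.98 ± 0.67 (adjusted p 0.00203), CDKN1C by 1.92 ± 0.55 (0.00921) and IGF2 by 1.51 ± 0.34 (0.00229). With at least 50 cells per tag in place of 20, H19 read -1.77 (adjusted p 0.244), DLK1 2.54 (0.0897), IGF2 1.12 (0.129) and PLAGL1 -0.53 (0.0573) there, none of them called. PEG10 (2.83), CDKN1C (1.83) and MEST (1.66) kept their calls.

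IGF2 was also called higher in organoids in 5 neural class comparisons, by 1.98 to 3.03. Its levels there were low, with medians of 7.35 to 28.2 CPM in organoids and 1.88 to 3.92 CPM in flat cultures. In the same 5 fits, 3 or 4 of the 8 mesenchymal markers passed the filter. COL3A1 was called higher in glycinergic neuron-like cells (0.90, adjusted p 0.0359). COL1A2 (-1.87, adjusted p 1e-06) and PRRX1 (-2.83, adjusted p 2.7e-06) were called lower in those cells, and COL1A1 was called lower in cycling-like cells of the second pair (-0.96, adjusted p 0.00419) and excitatory neuron-like cells of monocultures (-1.08, adjusted p 0.0406). No other marker was called in these fits, and COL3A1 read 0.20 to 1.11 over the 5. Within mesenchymal-like cells of the second pair, COL1A1 (-1.58), COL1A2 (-1.01), DCN (-0.93) and PDGFRB (-2.45) were called lower too, and no marker higher. IGF2 counts per marker count in mesenchymal-like cells were 0.0721 in 2DCocu and 0.326 in 3DFusi, and 0.0809 in 2DMono and 0.196 in 3DMono. The markers are thus no fixed measure of IGF2 in free RNA, whose part was not tested.

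**Figure D5:**
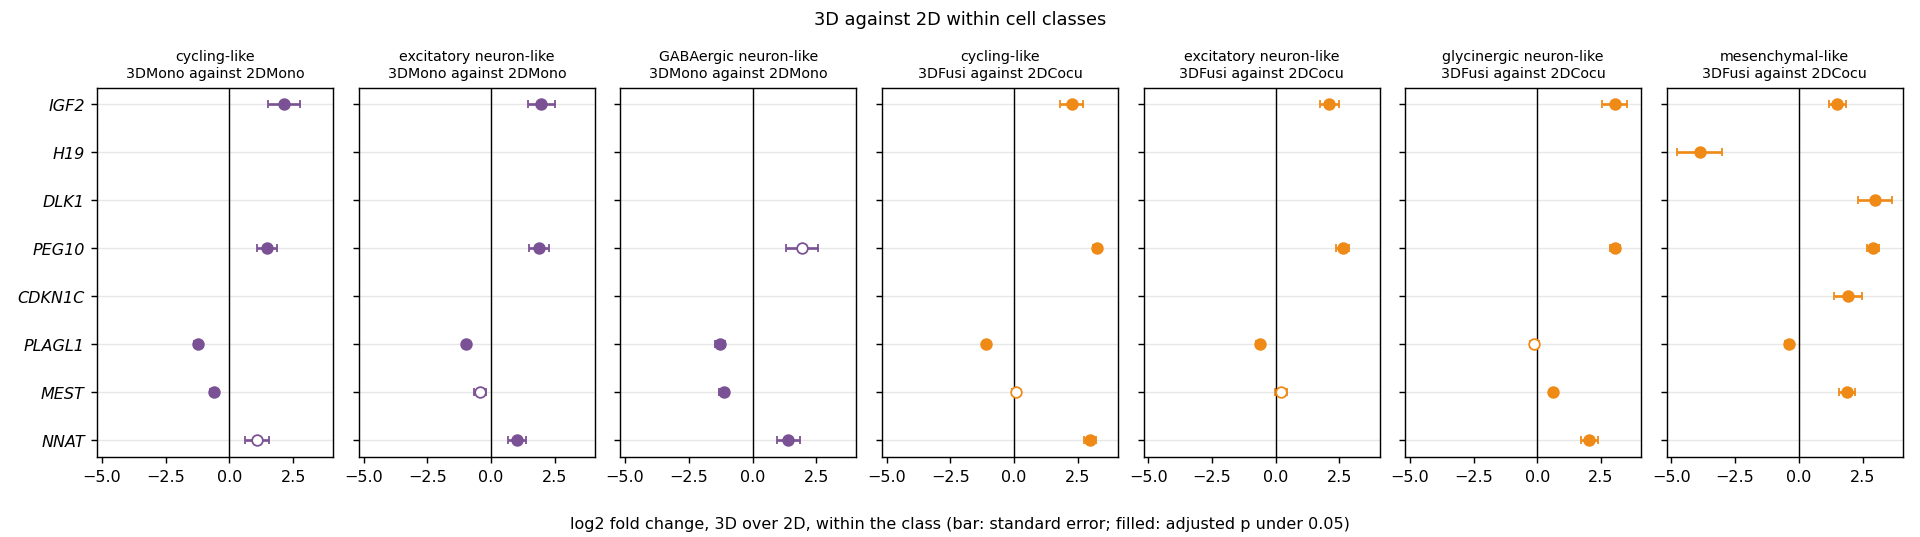
Log2 fold change of 3D over 2D with standard error within each class that could be tested, left 3 panels for monocultures and right 4 for the second pair; filled points have an adjusted p under 0.05, and genes without a point did not pass the filter. PEG10 lies right of 0 in all 7 panels and PLAGL1 left of 0 in all 7, though its value in glycinergic neuron-like cells turned to 0.0159 at resolution 0.4.

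The organoid protocols 3DProto1For and 3DProto2Xia (3 tags against 3) gave 0 called genes of 20599 tested, 0% of all, with 1603 at an unadjusted p under 0.05 in edgeR, and 0 of the 7 members that passed the filter. NNAT read -1.14 ± 0.51 (adjusted p 0.634) and IGF2 0.92 ± 2.69 (adjusted p 0.925), the widest standard error of the 7. The shares of mesenchymal-like plus muscle-like cells in the 6 tags were 33.96%, 50.4% and 0% for 3DProto1For and 0%, 36.5% and 0% for 3DProto2Xia, in the same order as the IGF2 levels above. The 3 tags with these cells also held the highest CDKN1C (8.23, 9.93 and 21.3 CPM), DLK1 (21.9, 29.5 and 36.9 CPM) and MEG3 (1.47, 0.970 and 1.53 CPM) of the 6. In simulated counts with the spread typical of genes of like level in these tags, 5% of genes changed 2-fold and 70% of genes changed 4-fold were recovered. Only genes above a minimum mean count were changed there, so these rates may not hold for members with few counts or a wider spread.

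Among the flat protocols (2 tags each), a joint test called 39% of 25637 genes and 9 of the 10 members, all but MEG3 (adjusted p 0.0607). MEST had the lowest adjusted p (1.4e-06; 93.5 and 91.8 CPM in 2Fjo, 344 and 317 in 3Wu, 39.6 and 48.7 in 4Nic), and that of PEG10 was 0.000116 (114 and 178, 614 and 994, 222 and 184 CPM). PEG3 (3.4e-05) passed the filter only through the protocols in which it was high, so its call follows in part from the filter. 2DProto3Wu was the highest of the 3 in DLK1, PEG3, PEG10, CDKN1C, MEST, NNAT and MEG3, and the lowest in IGF2. 2DProto4Nic was the lowest in MEST, CDKN1C, PLAGL1 (39.5 and 36.8 CPM), NNAT (1.68 and 1.17 CPM), H19 (0.566 and 0.883 CPM) and PEG3. Without mesenchymal-like and muscle-like cells IGF2 lost its call in this comparison (adjusted p 0.231, against 0.0047 with them).

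Of the 10 genes, 0 were called after any treatment in edgeR with all tags. AcCoc against Vehic in 2DCocu called 6.1% of 21032 genes and 0 of 9 members tested, and AcMor against Vehic there called 0.975% and 0 of 9. The nearest in AcCoc were PEG10 (0.37 ± 0.11, adjusted p 0.062) and MEST (0.36 ± 0.11, adjusted p 0.0688) in edgeR. DESeq2 called 2 of the 9 members in this contrast, both higher after AcCoc, and more of all genes than edgeR (counts in the closing section). Without 2DCocu Vehic replicate 4, edgeR called 1 member, also higher after AcCoc. The fits leaving out 1 tag called 403 to 1434 of all genes in this contrast. IGF2 after AcMor read 1.46 ± 0.72 (adjusted p 0.398). The other 6 contrasts, AcCoc and AcMor in 3DFusi and AcDop and AcMor in 2DMono and in 3DMono, called 0% of genes and 0 members in edgeR (8 members tested in 3DMono, 9 elsewhere). At an unadjusted p under 0.05 there were 393 and 177 genes in 3DFusi, 467 and 1247 in 2DMono, and 740 and 1925 in 3DMono.

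Other imprinted genes give the setting. Of 41 on the list, 29 were tested in monocultures, where 4 rose and 6 fell, and 30 in the second pair, where 12 rose and 7 fell, to be read against 38% and 48.8% of all genes called. Their median log2 change was -0.04 and 0.08, against 0.03 and 0.04 over all genes tested and 0.46 and 1.57 over the 9 members that passed the filter, which is a description of a chosen set and supports nothing on its own. The largest called changes belonged to ZIM2, which shares its start with PEG3 (-4.98 and -3.77), ATP10A, a lipid flippase (-4.96 and -3.34), and, in monocultures, the antisense RNA GNAS-AS1 (-1.36). In the second pair WT1, a transcription factor of the kidney and mesothelium, rose by 3.51. WT1 held only 404 counts over all tags. With so few it could pass the filter only through the organoid side, so its call follows in part from the filter.

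Of 18 genes of the IGF pathway, 16 were tested in each pair. In monocultures 4 rose and 8 fell, where 38% of all genes were called. In the second pair 3 rose and 5 fell, a share close to the 48.8% of all genes called, so that count shows nothing particular about the list. The binding proteins IGFBP3 (-3.67 in monocultures) and IGFBP7 (-2.33 and -1.23), and the protease PAPPA that cuts IGF binding proteins (-2.43 and -1.14) fell where a value is given. IGF1, the related ligand, rose by 1.82 in the second pair. Of 7 genes that maintain imprints, 6 were tested. TRIM28, the corepressor that works with ZFP57, rose in both (0.65 and 0.82), UHRF1, which brings the maintenance methyltransferase to replicated DNA, fell in both (-0.60 and -0.45), and ZNF445, a zinc finger partner of TRIM28, rose by 0.35 in the second pair. In monocultures 1 of the 6 rose and 1 fell (38% of all genes called), and in the second pair 4 rose and 1 fell (48.8%).

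Neighbouring genes were compared across tags within an arrangement, as log2(CPM + 1), in 8 relations with two-sided permutation tests. The permutations exchanged tags freely over numbers and treatments. They did not allow for the likeness of 3DFusi tags with the same number, described below. For IGF2 and H19, Pearson's r was 0.394 in 2DCocu (12 tags, permutation p 0.207, adjusted 0.551, Spearman's rho 0.483 with permutation p 0.114). It was 0.103 in 3DFusi (10 tags, permutation p 0.783, adjusted 0.881, rho -0.0182 with permutation p 0.973). In 2DMono r was -0.176 (6 tags, exact permutation p 0.686, adjusted 0.881, rho -0.543 with p 0.297), and in 3DMono 0.141 (6 tags, exact permutation p 0.776, adjusted 0.881, rho -0.0857 with p 0.919). Without the 2 tags farthest from the median of IGF2, r was 0.290 in 2DCocu, 0.496 in 3DFusi, -0.166 in 2DMono and 0.686 in 3DMono. The relation passed the test in none of the 4 arrangements, with or without those tags (adjusted p 0.551 to 0.881 with them and 0.619 to 0.875 without). Leaving them out left 4 tags each in 2DMono and 3DMono. So few tags have too few orders for a lone relation to pass after adjustment over 8, so that result decides nothing there.

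For DLK1 and MEG3, r was 0.718 in 3DFusi (permutation p 0.0204, adjusted 0.163, rho 0.770 with permutation p 0.0127, adjusted 0.102) and 0.867 there without the 2 tags farthest from the median of DLK1. In 3DMono r was 0.905 (exact permutation p 0.0847, adjusted 0.339, rho 0.543 with p 0.297) and 0.522 without the 2 tags farthest from the median. In 2DMono r was 0.278 (exact permutation p 0.581, adjusted 0.881, rho 0.257 with p 0.658). In 2DCocu r was -0.0494 (permutation p 0.881, adjusted 0.881, rho -0.0839 with p 0.799). None of the 8 passed the threshold after adjustment. MEG3 rested on 0 to 18 counts a tag in these arrangements, which limits these values.

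Over all 46 tags, likeness to other genes was described by r of log2(CPM + 1) among 26175 genes, with no test, since tags of an arrangement share their protocol. PEG3 was most like ZIM2 (0.939), MEST most like COPG2 (0.866), and DLK1 was like KCNQ1 (0.847) and MEG8 (0.838), a noncoding RNA further along chromosome 14 from MEG3. KCNQ1, which lies beside CDKN1C at chr11:2445008-2849105, was also the gene most like CDKN1C (0.891) and the second for MEG3 (0.790, after LGR5 at 0.797). IGF2 was most like NID1 (0.876) and SYNPO2 (0.873), PEG10 like PNMA8A (0.906) and YWHAH (0.902), and NNAT like TUBB2B (0.908). H19 had TRIM66 (0.718) and CPEB2-DT (0.702), and PLAGL1 had GBP1 (0.741) and RBPMS (0.732). PEG3, MEST and CDKN1C had ZNF680 (0.913), NALCN (0.835) and EIF5 (0.887) as second. Among the members themselves, DLK1, CDKN1C, MEST, PEG10 and MEG3 had r of 0.609 to 0.791 with each other, and IGF2 with H19 had 0.0491.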

How the data were processed

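Fixed single cells of 46 culture tags were sequenced as 1 split-pool experiment in 8 sublibraries. The values are expected counts, estimated counts of reads or molecules per gene and cell that the authors deposited without further scaling as 1 matrix of 60286 genes and 43693 cells. Salmon 1.7.0, alevin, Seurat 4.1.1 and hg38 are named in the submitters' processing notes, with no roles. The sources used here do not state counting rules or cell filters. Of the 215531617 entries above 0, 54.3% were whole numbers, and every cell had at least 1006 genes and at most 10.0% mitochondrial counts. A split of a read over several genes would give such fractions, which limits values for overlapping genes.

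For each tag the counts of its cells were added up, rounded and tested with edgeR 4.0.16 in R 4.3.3 (TMM scaling, filterByExpr, robust quasi-likelihood F test). P-values were adjusted by Benjamini-Hochberg over all genes tested, with a threshold of 0.05. Fold changes are relative to TMM scaling, and CPM to all counts of a tag. Intervals and floors (3 counts) cover counting error only. The replicate unit was the tag, and treatments shared a control group within an arrangement.

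Cells were clustered with scanpy 1.11.5 (2000 variable genes, 30 principal components, 20 neighbours, Leiden resolution 0.8, 48 clusters), leaving 76 genes of the member and other lists out. A cluster was named where at least 3 markers and 40% of a marker list were raised 2-fold and seen in 10% of its cells. It stayed unnamed where another class had more of its markers among the 10 most raised genes. Ties between 2 classes also left clusters unnamed, other than some ties with the cycling list. Doublets were called by simulation (1558 cells, 3.57%) and kept, with a repeat without them. Class sums were tested for tags of at least 20 cells, with 3 tags or more a side.

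Alternatives were DESeq2 1.42.0, its size factors, no filter, no doublets, Vehic tags only, leaving out each tag, a block on the tag number (edgeR, or limma 3.58.1 voom between arrangements), resolution 0.4 and 50 cells per tag. Tags with the same number deviated together in 3DFusi (correlation of deviations from treatment means 0.163 to 0.686 in 9 pairs), so the numbers were read as pairs there from the data and not from a label. In 3DMono the pairs were positive but weaker (0.0809, 0.212 and 0.309), and not every pair was over 0.1. With 2 tags per treatment there and in 2DMono, deviations mirror each other. The 6 pairs of each thus hold every value more than once and are not independent. In 2DCocu (-0.46 to 0.139) and 2DMono (-0.103 to 0.274) the signs were mixed.

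The test was tried on simulated counts. Changes were set only in genes above a minimum mean count, and the spread followed the trend over genes and not that of each gene. The rates below may therefore not hold for members with few counts or a wide spread. At 2-fold it recovered 86% of changed genes for the monoculture pair, 97% for the fused and co-cultured pair and 96% for AcCoc in 2DCocu. The members, the lists of other imprinted, IGF pathway and imprint maintenance genes, and the rule for naming genes (from each list, at most the 3 called genes with the largest change per format comparison) were chosen with earlier results of these data known. Sequences, positions and promoter windows came from RefSeq tables.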

Additional observations from a re-analysis of the deposited data

Results flagged for a closer look

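Single tags stood far from the others of their group in 14 of 70 groups tested by Dixon's criterion, which chance alone meets in about 1 in 20 groups. In 3DFusi, AcCoc replicate 3 was the highest tag for DLK1 (24.0 CPM), MEST (212 CPM) and PLAGL1 (129 CPM), and 51.2% of its cells were mesenchymal-like. Also in 3DFusi, AcCoc replicate 2 stood apart in PEG3 at 2.26 CPM, both among all 10 tags and among the 4 AcCoc tags, and 1.22% of its cells were muscle-like. AcMor replicate 4 of that arrangement read 4.15 CPM of H19.

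In 3DMono, Vehic replicate 2 stood apart in 4 genes: IGF2 (516 CPM), DLK1 (4.00 CPM), MEG3 (0.727 CPM) and PEG3 (0.590 CPM). This tag held 7.55% mesenchymal-like and 2.76% muscle-like cells. In 2DMono, AcMor replicate 2 read 140.2 CPM of IGF2, with 0.779% muscle-like cells, and Vehic replicate 1 read 5.33 CPM of H19. Among the 4 AcCoc tags of 2DCocu, replicate 4 read 6.15 CPM of DLK1 and replicate 2 read 13.9 CPM of H19.

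The difference between organoid and flat cultures was itself different between the pairs for 2 genes by the interaction test in edgeR, which had no block on the tag number. That difference was higher in the fused and co-cultured pair by 1.504 for MEST (log2, adjusted p 0.000135) and by 0.56 for PLAGL1 (adjusted p 0.0393).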

How the results depend on the processing

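Over the alternatives run, 315 values of single genes kept their direction and side of the threshold, 11 gained a call, 18 lost one and 1 turned: PLAGL1 in glycinergic neuron-like cells of the fused and co-cultured pair read 0.0159 at resolution 0.4 (adjusted p 0.956). Of the counts, class levels and relations, 118 stayed, 8 moved and 1 turned. With Vehic tags only, which leaves fewer samples, 2 members were called in monocultures (7 with all tags) and 3247 genes in place of 8297. DESeq2 called 2 members for 3DFusi against 3DMono (1525 genes, edgeR 350) and 2 for AcCoc in 2DCocu (2010 genes, edgeR 1283). With no filter, 6 members were called for 2DCocu against 2DMono in place of 3, and 6947 genes of 43406 in place of 6405 of 21435. At resolution 0.4, MEG3 in muscle-like cells read 4.319 CPM and NNAT in intermediate progenitor-like cells 13.92. Summed over all tags, MEG3 in muscle-like cells read 6.38 CPM and MEST in GABAergic neuron-like cells 228.9. DLK1 with MEG3 in 2DCocu read 0.23 without the 2 tags farthest from the median. Other than the fewer Vehic tags, the cause was not tested. Leaving out each tag in turn gave 6 to 8 members called in monocultures (7184 to 8275 genes), 8 to 9 in the second pair (10419 to 11355), 7 to 9 in the flat protocols (6324 to 10273), 0 to 1 for AcCoc in 2DCocu (1 without Vehic replicate 4; 403 to 1434) and 0 to 0 in the organoid protocols and the other 7 treatment contrasts. It was not run for 2DCocu against 2DMono or 3DFusi against 3DMono. With the tag number as a replicate block, limma voom called 8 members in monocultures (7837 genes; IGF2 1.96, adjusted p 0.0414) and 8 in the second pair (9176 genes); since the tool changed with the block, what added the IGF2 call cannot be told apart. The block in edgeR called 0 after each treatment, where AcMor in 2DCocu called 43 genes in place of 205. No other member call changed in those fits. Low counts limit MEG3, organoid PEG3 and H19.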
